A study of Homo sapiens with 6 samples.

Results

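The annexin family was followed in the prostate cancer line LNCaP, human cells that carry prostate-specific membrane antigen (PSMA, encoded by FOLH1), with and without its knockdown. All probe sets whose platform symbol was exactly ANXA1, ANXA2, ANXA3, ANXA4, ANXA5, ANXA6, ANXA7, ANXA9, ANXA10 or ANXA11 were taken, which gave 10 of the 11963 genes named singly on the array, with 16 of its 22277 probe sets. The 3 control samples were LNCaP cells grown in RPMI and described as untreated. The 3 knockdown samples were LNCaP cells grown in RPMI and transduced with a retroviral microRNA-based short hairpin RNA against PSMA. An empty vector in the controls, clonal or pooled knockdown cells and separate cultures for the replicates are not described in the labels used here. The p-values therefore reflect only the array-to-array spread, possibly technical.

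Annexins are cytosolic proteins that bind negatively charged phospholipids when calcium rises, through a conserved core of repeated helical domains, while their differing N-terminal tails bind partners such as S100 proteins. They act in membrane repair, vesicle traffic and the resolution of inflammation. In prostate, annexins A1 and A2 are known for reduced expression in many carcinomas, and LNCaP cells are known for low annexin A2.

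ANXA1 was the one annexin called lower after PSMA knockdown. Its signal fell from a low control level to one under log2 4, the level required for testing. With log2 4 taken as the knockdown level, the ANXA1 signal was at least 1.94-fold lower. ANXA9 was 1.13-fold higher on 1 of its 2 probe sets, a call that was lost when any of 5 of the 6 arrays was left out. The other 12 tested probe sets, for ANXA2, ANXA4, ANXA5, ANXA6, ANXA7, ANXA9 and ANXA11, did not pass the test. The 95% intervals of all 12, which rest on the same array spread, excluded a 1.5-fold change of the probe set signal in either direction. Small changes were usual on these arrays: the difference between group means was under 1.5-fold for 13 of the 14 annexin probe sets (92.9%) and for 92.8% of all 15852 probe sets tested. ANXA3 and ANXA10 stayed under log2 4 in every array and were not tested.

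The start regions of ANXA1 and ANXA2 are shown because ANXA1 is the member called lower and ANXA2, which did not pass, is the member most often studied beside it in prostate cancer. Both are the 250 bases before the transcription start, from RefSeq on GRCh38.p14, written 5′ to 3′ on the gene's strand with the motif TATAAA in capitals. The ANXA1 window is chr9:73151615-73151864 on the plus strand and the ANXA2 window is chr15:60397987-60398236 on the minus strand.
ANXA1: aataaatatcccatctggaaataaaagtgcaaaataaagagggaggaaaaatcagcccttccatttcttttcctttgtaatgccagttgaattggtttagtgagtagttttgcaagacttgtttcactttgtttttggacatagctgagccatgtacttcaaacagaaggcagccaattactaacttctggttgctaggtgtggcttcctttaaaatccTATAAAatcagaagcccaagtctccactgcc
ANXA2: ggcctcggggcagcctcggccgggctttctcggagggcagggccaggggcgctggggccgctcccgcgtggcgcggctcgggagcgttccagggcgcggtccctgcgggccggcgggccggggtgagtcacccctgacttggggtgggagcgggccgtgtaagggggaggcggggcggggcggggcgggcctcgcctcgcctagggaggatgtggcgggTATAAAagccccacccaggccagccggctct
In both windows TATAAA began 31 bases before the start. The ANXA1 window held 0 CpG dinucleotides at a GC content of 38.4%, and the ANXA2 window held 28 at 78.0%, against a median of 11 CpG over all 35116 RefSeq windows of this length.

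All 10 members had a window in the RefSeq table, 14 windows in all. TATAAA on either strand (TATAAA or TTTATA) was present in 4 of these 14 windows and in 10.7% of all windows. The other windows that held it were those of ANXA10, which also had 0 CpG, and 1 of the 3 ANXA11 windows. The remaining members had between 4 CpG (ANXA9) and 36 CpG (1 of the ANXA4 windows). The steroid receptor half-site AGAACA, searched on either strand (AGAACA or TGTTCT), was in 1 of the 14 windows, again of ANXA11, and in 12.4% of all windows. A match describes these letters only, and no match says nothing about a factor.

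The values were GCRMA intensities on a log2 scale, GCRMA being a method that corrects background, normalizes between arrays and summarises each probe set. Differences are knockdown minus control from limma, fitted over all 15852 probe sets in which at least 3 of 6 arrays reached log2 4, with Benjamini-Hochberg adjustment over all of them. A call means an adjusted p under 0.05. Calls were common: 34.4% of all tested probe sets passed, 16.6% higher and 17.8% lower, and arrays did not overlap between groups for 48.3% (24.3% higher, 24% lower). The 5 probe sets paired with FOLH1 or its near-identical copy FOLH1B read lower in all knockdown than in all control arrays. The 4 paired with FOLH1B, alone or beside FOLH1, had log2 differences from -2.72 to -2.23. Probe set 217483_at, the only one paired with FOLH1 alone, differed by -0.79 (SE 0.18, limma adjusted p = 0.0123). The signal at the 5′ end relative to the 3′ end of 6 control transcripts was lower in every knockdown array, by -0.97 for the poly-A control dap to -0.10 for GAPDH, and the mean of the 18 hybridisation control probe sets differed by -0.83. Each of these 7 measures gave p = 0.1 in an exact permutation test, two-sided, the smallest that 3 against 3 arrays allow. Only the knockdown cells are described as transduced. For any difference given here, PSMA loss, the retroviral transduction and array handling thus cannot be told apart.

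Of the 14 annexin probe sets tested, 2 (14.3%) were called, ANXA9 higher and ANXA1 lower, against 34.4% of all probe sets. The annexin arrays did not overlap between groups for 6 probe sets (42.9%), 2 higher and 4 lower, against 48.3% overall. These shares were not tested against each other. Without ANXA1, which could enter the fit only with a higher control level, 1 of 13 (7.69%) was called. Of these 13, 5 (38.5%) did not overlap between groups, 2 higher and 3 lower. The median log2 difference of the 13 annexin probe sets with every array at log2 4 or above was 0.04, beside 0.01 for all probe sets tested.

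**Figure D1:**
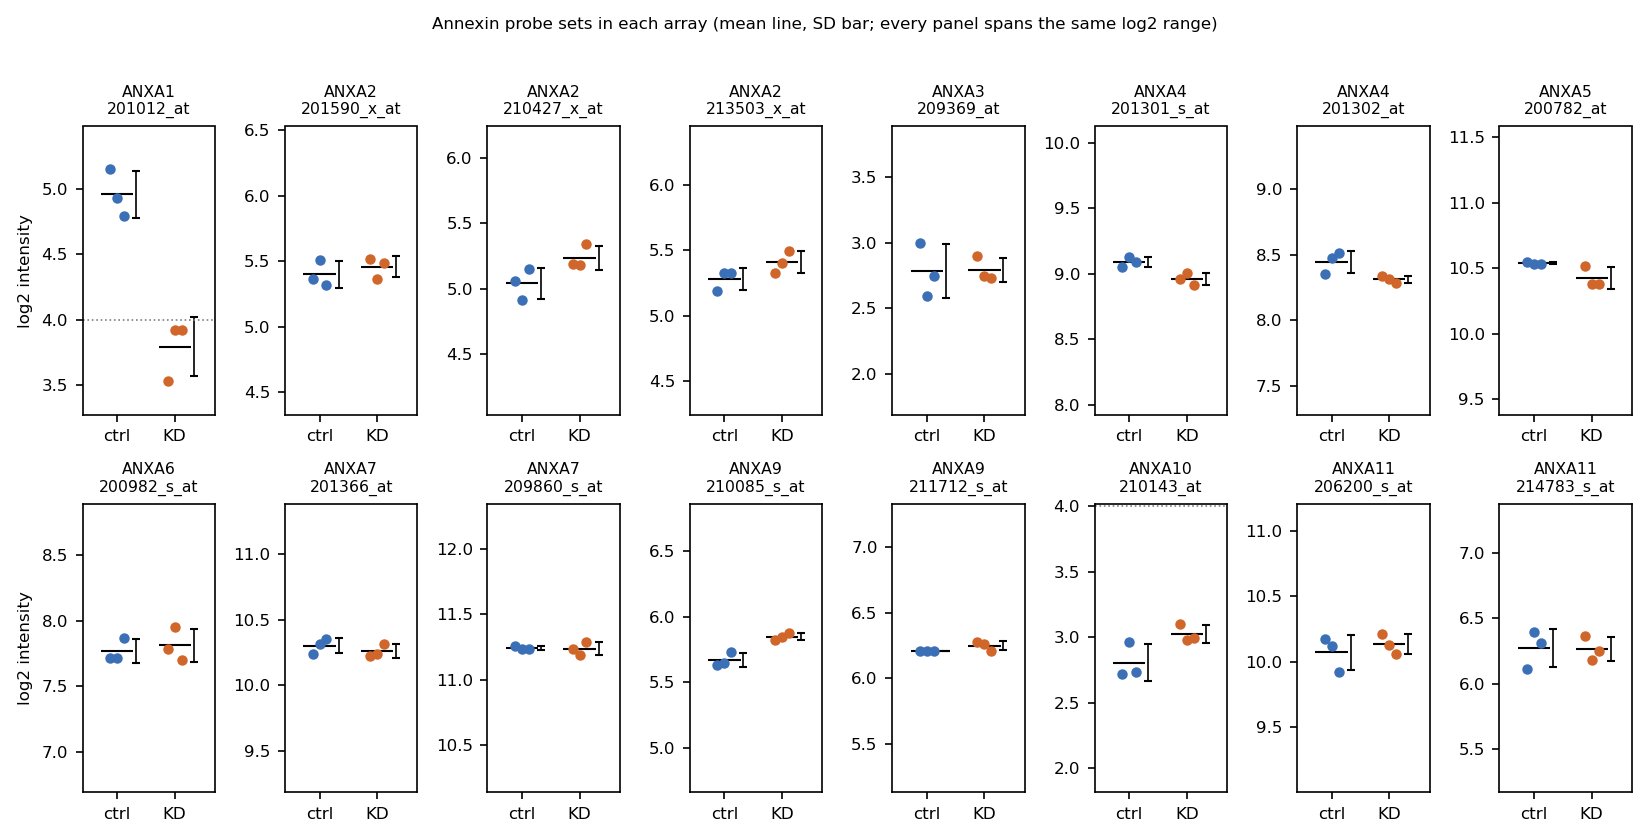
Log2 intensity of the 16 annexin probe sets in each array, with 3 control (ctrl, blue) and 3 PSMA knockdown (KD, orange) arrays per panel, the group mean as a line, the SD as a bar and log2 4 as a dotted line where it falls in the panel. Every panel spans the same log2 range, and the ANXA1 knockdown arrays, at 3.54 to 3.92, lie under all ANXA1 control arrays, at 4.79 to 5.15.

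ANXA1 encodes annexin A1 (lipocortin), a glucocorticoid-induced protein that dampens inflammation through formyl peptide receptors. Its 1 probe set, 201012_at, read 5.15, 4.93 and 4.79 on the log2 scale in the control arrays and 3.54, 3.92 and 3.92 in the knockdown arrays. Every knockdown array was under log2 4 and under every control array. Control arrays averaged 4.96 ± 0.18 and knockdown arrays 3.79 ± 0.22 (SD, n = 3 each). The control level of ANXA1 lay between those of the leukocyte marker ITGAM (4.54) and the endothelial marker VWF (5.39). How much of this signal is ANXA1 RNA was not tested, so the fold sizes given are of signal. With values under log2 4 raised to 4 the log2 difference was -0.96, which gives the bound of 1.94-fold. On the values as deposited the fitted difference was -1.16 (SE 0.13, 95% interval -1.47 to -0.86, limma adjusted p = 0.000625), a size that rests on knockdown values under the level required. It stayed called when any single array was left out, with fitted differences of -1.25 to -1.03. With a control array left out, fewer than 3 ANXA1 values reached log2 4. Those fits fell short of the main filter and are no separate support for the call. The arrays average over cells, so fewer cells with ANXA1 RNA and less ANXA1 RNA per cell cannot be told apart.

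Annexin A1 is abundant in basal epithelium, fibroblasts and leukocytes, so their markers are given beside it. Among 4 basal markers measured, KRT14 and KRT15 stayed under log2 4 in every array and KRT5 did not pass (-0.02). DST fell by 0.18 on its brightest probe set, while its 2 other tested probe sets did not pass. The summed linear intensity of the 2 tested basal markers was 90.0 to 97.6 in control and 83.5 to 89.1 in knockdown arrays. Of 6 fibroblast and smooth muscle markers, COL1A2 stayed under log2 4. By their brightest probe sets COL3A1 rose by 1.01 and ACTA2 by 0.95, and COL1A1, DCN and MYH11 did not pass. These genes had 4 other tested probe sets, of which 1 of COL3A1 was called higher, 1 of COL1A1 lower and 2 not called. By the brightest probe sets, the 5 tested genes summed to 247.7 to 272.2 in control and 378.0 to 381.6 in knockdown arrays. The leukocyte marker CD14 stayed under log2 4 and CD3E and ITGAM did not pass, with sums of 38.6 to 45.4 in control and 40.4 to 42.8 in knockdown arrays. The endothelial marker CDH5 was under log2 4, and PECAM1 and VWF summed to 56.6 to 60.8 and 55.3 to 64.7. Luminal prostate markers were present in all arrays, led by KRT18 at 11.57 in both groups. Of the 7 luminal genes tested, 5 (71.4%) were called by their brightest probe sets, beside 34.9% of all 9241 genes taken this way. The secreted acid phosphatase ACP3 rose by 0.79 on the log2 scale, the kallikrein KLK2 by 0.41 and the protease TMPRSS2 by 0.28. KLK3 (prostate-specific antigen) fell by 0.71 and the homeobox factor HOXB13 by 0.25, and KRT8, like KRT18, did not pass. The luminal genes had 4 other tested probe sets, of which 1 of TMPRSS2 was called higher, 1 of KLK3 lower and 2 of KLK2 not called. All 6 samples are described as cells of the LNCaP line, so these values are marker signal read in a cell line. Their tie to the ANXA1 value was not tested.

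ANXA2 encodes annexin A2, which forms a tetramer with S100A10 at the plasma membrane and binds plasminogen and its activator. Its 3 probe sets are of the _x_at kind, which can also match other transcripts. Probe set 210427_x_at read 5.06, 4.92 and 5.15 in control and 5.19, 5.18 and 5.34 in knockdown arrays. The knockdown arrays lay above the control arrays by a narrow margin, and the log2 difference of 0.19 (SE 0.08) had a limma adjusted p of 0.0910. Its 95% interval, 0.01 to 0.37, reached a 1.30-fold rise, the farthest from 0 of the probe sets that did not pass. Probe set 213503_x_at read 5.19, 5.33 and 5.33 in control and 5.33, 5.41 and 5.49 in knockdown arrays, a difference of 0.13 (adjusted p = 0.178 in limma). Probe set 201590_x_at read 5.37, 5.51 and 5.32 against 5.52, 5.37 and 5.49, a difference of 0.06 (adjusted p = 0.554 in limma). Control and knockdown arrays overlapped for both of these. None of the 3 ANXA2 probe sets passed. Their group means, 5.04 to 5.46, were near that of the endothelial marker VWF (5.39 in control arrays). How much of this signal is ANXA2 RNA was not tested.

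All 3 probe sets of ANXA4 and ANXA5 read slightly lower in every knockdown than in every control array, and none passed the test. Annexin A4 binds membranes of secretory epithelia. Its probe set 201301_s_at read 9.050, 9.126 and 9.093 in control and 8.961, 9.004 and 8.917 in knockdown arrays, with a log2 difference of -0.13 (SE 0.05, limma adjusted p = 0.0935). Its probe set 201302_at read 8.35, 8.47 and 8.51 against 8.34, 8.31 and 8.28, also a difference of -0.13 (limma adjusted p = 0.127). The 2 probe sets thus gave the same size at different brightness, and the lower ends of their 95% intervals were -0.25 and -0.27. Annexin A5 binds phosphatidylserine and is widely used to stain dying cells. Its probe set 200782_at read 10.55, 10.53 and 10.53 in control and 10.52, 10.38 and 10.38 in knockdown arrays. The first knockdown array lay close to the control arrays and the others lower, and the difference was -0.11 (95% interval -0.25 to 0.02, limma adjusted p = 0.165).

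The members tied to vesicle and organelle traffic did not pass the test on any probe set. Annexin A6, which has a duplicated core and binds endosomal membranes, read 7.71, 7.72 and 7.87 in control and 7.79, 7.95 and 7.70 in knockdown arrays on probe set 200982_s_at. Those arrays overlapped, with a log2 difference of 0.05 (95% interval -0.14 to 0.23). Annexin A7 (synexin), which promotes membrane fusion and has been studied as a tumour suppressor in prostate, gave differences of -0.04 (95% interval -0.17 to 0.09) on 201366_at and 0.00 (-0.12 to 0.11) on 209860_s_at. Its group means were 10.30 ± 0.06 against 10.26 ± 0.05 on the first and 11.24 ± 0.02 against 11.24 ± 0.05 on the second (SD, n = 3). Annexin A11, which links RNA granules to lysosomes and binds PDCD6 and S100A6, gave differences of 0.06 (95% interval -0.13 to 0.25) on 206200_s_at and -0.01 (-0.20 to 0.19) on 214783_s_at. Its means were 10.07 ± 0.14 against 10.13 ± 0.08 and 6.27 ± 0.14 against 6.27 ± 0.09 (SD, n = 3), and its arrays overlapped on both probe sets.

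Annexin A9 is an atypical member whose core has lost the usual calcium-binding residues. Its probe set 210085_s_at read 5.63, 5.64 and 5.73 in control and 5.82, 5.85 and 5.87 in knockdown arrays. All knockdown arrays were above all control arrays, by a log2 difference of 0.18 (SE 0.05, 95% interval 0.06 to 0.30, limma adjusted p = 0.0331). The call was lost when any 1 array other than control replicate 3 was left out, with differences of 0.16 to 0.21 and limma adjusted p values of 0.0311 to 0.1045 over the 6 omissions. The other probe set, 211712_s_at, held the same value, 6.21, in all 3 control arrays and in 1 knockdown array, and 6.27 and 6.26 in the others, a difference of 0.04 that did not pass (limma adjusted p = 0.556). The gap between the 2 ANXA9 probe sets changed by 0.14 between groups, at p = 0.1 in an exact permutation test, two-sided, or 0.7 after Benjamini-Hochberg adjustment over the 7 within-gene pairs compared. The other 6 pairs, of ANXA2, ANXA4, ANXA7 and ANXA11, changed by -0.14 to 0.07, with exact permutation p values of 0.5 to 1. Where the deposited values were equal in several arrays the spread is understated. Such equal values were found for 5 of the 16 annexin probe sets (of ANXA2, ANXA5, ANXA7 and ANXA9) and for 32.3% of the 22215 probe sets that are not controls.

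**Figure D2:**
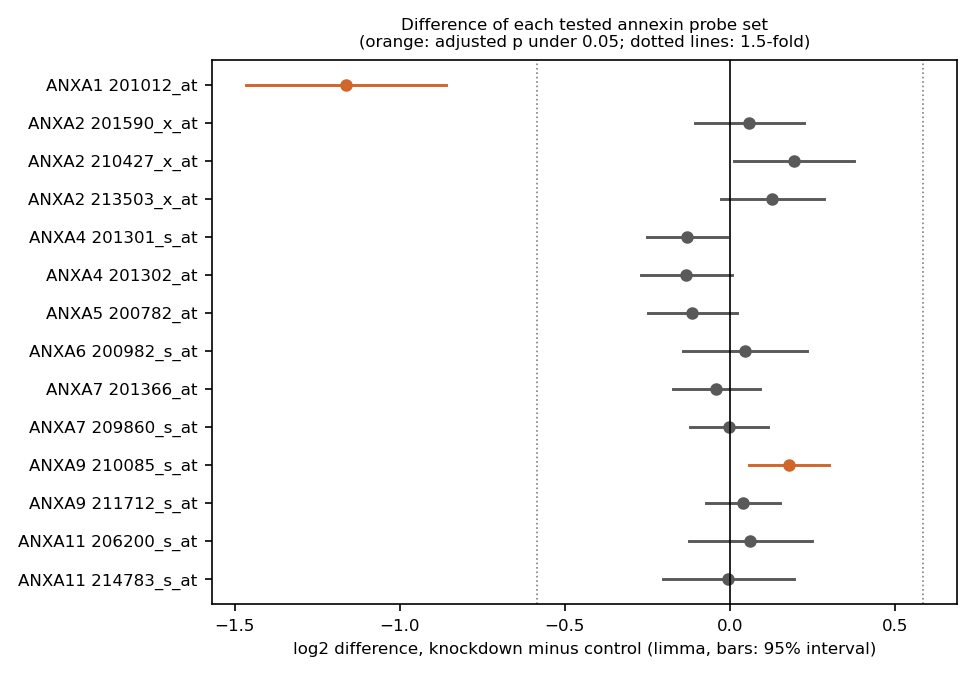
Log2 difference, knockdown minus control, of the 14 annexin probe sets tested, with 95% intervals from limma and dotted lines at a 1.5-fold change in either direction. ANXA1, whose knockdown arrays are all under log2 4, lies at -1.16 and ANXA9 (210085_s_at) at 0.18, both in orange as called, and the grey probe sets lie between -0.13 and 0.19.

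ANXA3 and ANXA10 gave no signal at the level required for testing. ANXA3 (annexin A3, studied as a prostate cancer marker in urine) read 3.003, 2.598 and 2.751 in control and 2.898, 2.751 and 2.734 in knockdown arrays on 209369_at. ANXA10 (annexin A10, a gene of gastric epithelium) read 2.72, 2.97 and 2.73 against 3.10, 2.98 and 2.99 on 210143_at. The knockdown arrays lay above the control arrays for ANXA10, and the groups overlapped for ANXA3. At such levels no fold change is given.

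**Figure D3:**
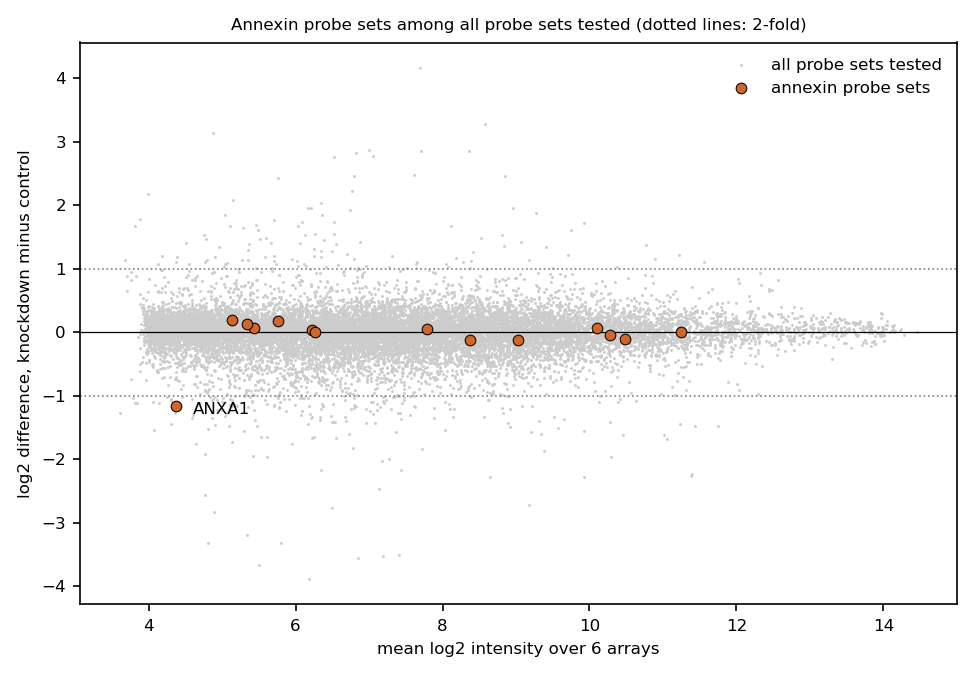
Mean log2 intensity over the 6 arrays against the log2 difference, knockdown minus control, for the 15852 probe sets tested (grey) and the 14 annexin probe sets among them (orange), with dotted lines at 2-fold. ANXA1 lies at the dim end, at a mean of 4.38, and its fitted difference of -1.16 rests on knockdown arrays under log2 4. The other annexins lie near 0.

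RNA for proteins that annexins bind or act with moved in both directions. Of 22 partner genes listed, 14 were tested, of which 3 were higher, 4 lower and 7 did not pass. That was 50% called, beside 34.9% (18.7% higher, 16.1% lower) among all 9241 genes. The list was chosen with earlier results of these data known, and the shares were not tested against each other. Of the 14 genes, S100A10 was tested only because its knockdown arrays passed log2 4. Without it, 2 of 13 were higher and 4 lower, with a median difference of 0.03, beside 0.03 for all genes. S100A10, the partner of annexin A2, read 3.71, 3.51 and 3.79 in control and 4.22, 4.31 and 4.40 in knockdown arrays. With log2 4 taken as its control level it was at least 1.24-fold higher (limma adjusted p = 0.00125 on the deposited values). AHNAK, a giant scaffold that binds the annexin A2 complex, read 7.60, 7.52 and 7.54 against 8.17, 8.21 and 8.10, which was 1.53-fold higher (limma adjusted p = 0.000229). Its dimmer probe set did not pass, at -0.11. HSPB1, a small heat shock protein, fell from 11.69, 11.64 and 11.64 to 10.74, 10.70 and 10.54, a log2 difference of -0.99 (limma adjusted p = 6.64e-05). HSPB1 was on the partner list, but its tie to annexins was not examined here.

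The remaining partner calls were smaller on the brightest probe sets. S100A11, which binds annexin A1, fell by 0.30, the calcium sensor SRI (sorcin), which binds annexin A7, by 0.27, and EGFR, whose kinase phosphorylates annexin A1, by 0.42. PDCD6 (ALG-2), a calcium sensor that binds annexin A11, rose by 0.20. These 4 genes complete the calls counted above. The partner genes had 10 other tested probe sets, of which 2 were called higher, 2 lower and 6 not called. For EGFR, 201983_s_at fell by 1.24, while its 4 remaining probe sets did not pass, at 0.02 to 0.16. For SRI, 208920_at fell by 0.59. For PDCD6, 222380_s_at rose by 1.08 and 222152_at by 0.27. FPR1, the only formyl peptide receptor tested, read 4.12 ± 0.14 in control and 4.21 ± 0.02 in knockdown arrays (SD, n = 3) and did not pass. PLAU, a plasminogen activator, did not pass (-0.04). Another 7 partners did not reach the level for testing: plasminogen itself (PLG), its activator PLAT, the urokinase receptor PLAUR, the receptors FPR2 and FPR3, S100A6 and the phospholipase PLA2G4A.

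Membrane repair genes and other calcium-dependent phospholipid binders were called at 15.4% and 27.3% by their brightest probe sets, beside 34.9% of all genes, shares that were not tested against each other. In the membrane repair list limma called 0 of 13 tested genes higher and 2 lower (1 and 4 at an unadjusted p under 0.05), with a median of -0.06. CAPNS1, the small calpain subunit, fell by 0.30 (limma adjusted p = 0.0206), from 10.13, 9.99 and 9.93 to 9.79, 9.76 and 9.59, and VAMP7, a vesicle fusion protein chosen as the other call of the 2, fell by 0.19. CAVIN1, a caveolar coat protein, differed by 0.28 without passing (limma adjusted p = 0.0680). The repair ferlin DYSF differed by -0.01. Of 8 other tested probe sets in this list, 2 were called, both of SNAP23, a membrane fusion protein whose brightest probe set, 209130_at, differed by -0.10 without passing. On 214544_s_at SNAP23 fell by 0.87. On 209131_s_at it was at least 1.79-fold lower, with every knockdown array under log2 4. That probe set could enter the fit only with a higher control level. Of 11 tested copines, synaptotagmins and related genes, 3 were called higher by limma and 0 lower (3 and 0 at an unadjusted p under 0.05), with a median of 0.06. FER1L4, a ferlin pseudogene, rose by 0.30 and the copine CPNE1 by 0.26, and ESYT1, an extended synaptotagmin, by 0.18. The 1 other tested probe set in this list, 202118_s_at of the copine CPNE3, was called lower at -0.54 (limma adjusted p = 0.0494) with overlapping arrays, while the brightest CPNE3 probe set differed by 0.05 without passing. With single arrays left out, the count lower in membrane repair was 0 without control replicate 1, 3 without knockdown replicate 1 and 1 without any other. The count higher in the last list was 2 without control replicate 1, 1 without control replicate 2, control replicate 3 or knockdown replicate 3, and 0 without knockdown replicate 1 or 2.

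**Figure D4:**
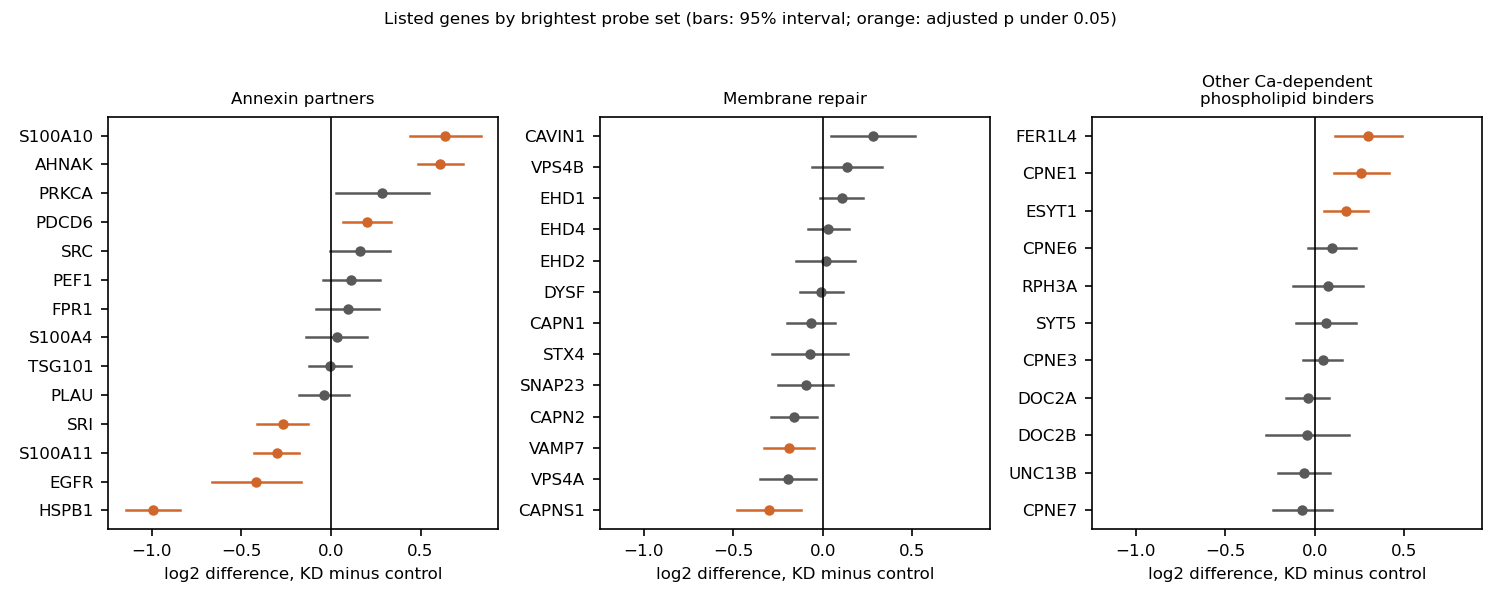
Log2 difference, knockdown minus control, of the listed genes by their brightest probe set, with 95% intervals from limma, for annexin partners (14 genes), membrane repair (13 genes) and other calcium-dependent phospholipid binders (11 genes). Orange marks an adjusted p under 0.05, from HSPB1 at -0.99 to S100A10 at 0.64 in the partner list. The S100A10 control arrays are all under log2 4, so its size rests on values under that level.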

How the data were processed

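Total RNA of 6 samples, 3 control and 3 PSMA knockdown, was labelled with biotin and hybridised to 1-colour Affymetrix arrays, per the labels' protocols. The authors deposited intensity values per probe set, processed with GCRMA, per the submitters' processing notes, whose version is not given in the sources used here. Intensities ran from 3.82 to 22631 (array medians 48.2 to 50.3), which marks a linear scale, and log2 was taken from these deposited values. Arrays carry no read depth, and their number limits the precision. Groups and replicate numbers came from the sample titles.

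Symbols came from the platform's annotation table: 19064 probe sets had 1 symbol, 1043 several and 2108 none, and 62 control probe sets were left out. limma 3.58.1 in R 4.3.3 (lmFit, eBayes) was fitted to the 15852 probe sets that reached log2 4 in at least 3 arrays. For the gene lists the brightest probe set stood for a gene. The method was tested on simulated data. Every annexin probe set is named. From each list up to 4 genes called at 1.5-fold or more were named, or the 2 with the largest change. From each marker list the brightest gene and genes changed at least 2-fold were named, and other markers were added. The members and lists were chosen with earlier results of these data known. Same-numbered arrays were not paired in the main fit. Their deviations correlated by 0.112, -0.0184 and 0.124, and those of differently numbered arrays by -0.141 to 0.041. Alternatives changed the filter, low values, normalization, unit of the fit, probe set kinds, variance model, array weights, block, threshold and arrays.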

Additional observations from a re-analysis of the deposited data

How the results depend on the processing

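The ANXA1 fall stayed called under all 17 alternatives that tested it, at -1.25 to -0.96 and limma adjusted p values of 4.5e-05 to 0.005. ANXA1 passed the log2 4 filter only through its control arrays. The alternatives reuse the same arrays, so for ANXA1 they are no separate support. With a filter at log2 6 it was not tested, and 0 annexin probe sets were lower. The count of annexin probe sets higher, 1 in the main setting, was 0 with no filter, trend and robust, or an adjusted p under 0.01. It was also 0 with the filter at log2 6, 1 probe set per gene, or no _x_at or _s_at probe sets. Those settings left the called ANXA9 probe set out of the fit. With the mean of probe sets, where it was averaged with the other ANXA9 probe set, the count was 0 too. The count was 2 with array weights and with the replicate block, each adding ANXA2 (210427_x_at), at limma adjusted p values of 0.0491 and 0.0473. Since the labels tie same-numbered arrays by a number only, the block is an alternative alone, and whether they were handled together was not tested. Left-out arrays gave 0 to 1 higher and 1 lower.

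Differences near 0 changed sign without being called: ANXA11 (214783_s_at) to 0.042 with quantile normalization and 0.032 with centring on array medians, ANXA7 (209860_s_at) to 0.035 with centring, and ANXA2 (201590_x_at) to -0.014 with array weights. With single arrays left out, ANXA11 ran from -0.084 to 0.054 (214783_s_at) and from -0.014 to 0.11 (206200_s_at), ANXA7 (209860_s_at) from -0.029 to 0.019 and ANXA6 from -0.024 to 0.10. Centring moved the median of all probe sets by 0.04.

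Partners lower, 4 in the main setting, were 2 without _x_at and _s_at probe sets and 2 at an adjusted p under 0.01. Membrane repair lower, 2 in the main setting, was 1 with no filter, centring, or no _x_at and _s_at probe sets. It was 4 with the filter at log2 6, the mean of probe sets, trend and robust, or array weights, and 0 at an adjusted p under 0.01. Higher, 0 in the main setting, was 1 with quantile normalization, centring, array weights and the replicate block. With arrays left out it ran from 0 to 1 higher and 0 to 3 lower. Other phospholipid binders higher, 3 in the main setting, were 0 without _x_at and _s_at probe sets, 0 at an adjusted p under 0.01 and 0 to 2 with arrays left out. Over all probe sets, 2624 higher and 2823 lower became 1382 and 1654 at an adjusted p under 0.01, 1311 and 1155 without _x_at and _s_at probe sets and 1611 and 1671 with means of probe sets. With 1 probe set per gene 1526 were lower. At least 2-fold, 116 higher and 208 lower became 71 and 81 without those kinds and 62 and 77 with means, and 93 lower with 1 probe set per gene. Single probe sets or means per gene, and leaving out _x_at and _s_at probe sets, test fewer units by construction. The cause of the moves was not tested.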

Other observations

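Probe sets paired with an ANXA2 pseudogene, or with several symbols including an annexin, lay outside the family as chosen, and none passed the test. ANXA2P2, a processed copy of ANXA2, read 5.30, 5.15 and 5.25 on the log2 scale in control and 5.30, 5.39 and 5.49 in knockdown arrays on 208816_x_at. Its difference of 0.16 (limma adjusted p = 0.116) lay within the range of the 3 ANXA2 probe sets, 0.06 to 0.19, and whether these probe sets share sequence was not tested. ANXA2P1 differed by 0.14 at a level near log2 4, and ANXA2P3 stayed below it in all arrays. Probe set 203074_at, paired with ANXA8 and its copy ANXA8L1, read 5.28 ± 0.25 in control and 5.20 ± 0.05 in knockdown arrays (SD, n = 3), a difference of -0.08. Probe set 201077_s_at, paired with both SNU13 (a ribonucleoprotein component) and ANXA2, was bright, at 11.44 ± 0.05 and 11.31 ± 0.04 (SD, n = 3). It differed by -0.13 (limma adjusted p = 0.0988), opposite in sign to the ANXA2 probe sets, and cannot be ascribed to either gene.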
